A study of Mus musculus with 12 samples.

Results

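The genes described here are the chemokines, the interleukins and the receptors of both, together with the soluble inhibitors of interleukins, in mouse liver. Members were all rows of the deposited expression table whose symbol begins with Ccl, Cxcl, Ccr, Cxcr, Ackr or Il followed by a digit, or is Cx3cl1 or Cx3cr1. The rule found 56 members among 12284 named genes. By the role of their products, 23 were ligands (16 chemokines and 7 interleukins) and 30 were receptors. The receptors comprised 4 signalling chemokine receptors, 3 atypical chemokine receptors and 23 interleukin receptor chains. The other 3 were the soluble inhibitors Il18bp and Il1rn, and Il4i1, an amino acid oxidase that carries an interleukin-like symbol. Members of these families outside those rows, such as Ccl2, Cx3cl1, Ccr1, Ackr3, Il6, Il10, Il15, Il1rl1 and Il7r, were not analysed here.

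Poly(A)-selected RNA from the liver was sequenced in 12 libraries, 6 per group. All mice carried floxed Acly and floxed Acss2 on both alleles and received an adeno-associated virus of serotype AAV8 at 6 to 8 weeks of age. In the DKO (double knockout) group the virus expressed Cre, and in the WT (control) group it expressed GFP. Expression was driven by TBG, a promoter active in hepatocytes, so the other cells of the liver were not targeted. Both groups were fed a Western diet for 6 weeks, beginning 1 week after injection. The labels did not state whether each library came from a separate animal, so p-values measure the spread between libraries. Cre and GFP differed between the groups together with the deletion, and their effects cannot be told apart.

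Chemokines are small secreted proteins that guide leukocytes along concentration gradients. They act on receptors coupled to G proteins, and the CC, CXC and CX3C families are named for the spacing of conserved cysteines. Atypical receptors bind chemokines without that coupling, and some of them remove the chemokines they bind. Many interleukins act on paired receptor chains that signal through JAK kinases and STAT factors or, for the IL-1 family, through MyD88 and NF-kB. In the liver these genes are known for the recruitment of monocytes, the maintenance of resident macrophages (Kupffer cells) and the acute phase response of hepatocytes.

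All differences are DKO minus WT on the log2 scale. Values are log2 CPM, log2 of the deposited CPM scale (reads relative to library size), as normalized by the authors. The lowest value in the table was -3.26 log2 CPM (0.104 CPM), and the read depth behind them is unknown. The deleted genes followed the labels. Acly was 6.56 to 9.35 log2 CPM in WT and 4.42 to 6.60 in DKO (17.6% of WT, limma adjusted p = 0.0165), with an overlap between groups. Acss2 was 6.12 to 7.45 log2 CPM in WT and 3.59 to 5.74 in DKO (22% of WT, limma adjusted p = 0.00571), with none. Of 9 hepatocyte markers 8 were measured, with summed levels of 69454 to 83952 CPM in WT and 58673 to 86943 in DKO. Adgre1, most T and NK cell markers (11 of 14 listed) and 7 of 8 neutrophil markers were not analysed here. In bulk liver, more cells of a type and more RNA per cell cannot be told apart.

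Between the groups, 2 members rose in DKO and 1 fell, by limma with Benjamini-Hochberg adjustment over all genes at an adjusted p below 0.05. Ccl9, a CC chemokine of macrophages that attracts cells through CCR1, rose 1.99-fold. Ccr2, the receptor by which inflammatory monocytes are recruited, rose 2.65-fold. Il1rap, the shared signalling chain of the receptors for IL-1, IL-33 and IL-36, fell to 74.1% of WT. The remaining 53 members did not pass. The 2 rises were 3.57% of the 56 members, where 0.619% of all genes rose, and the 1 fall was 1.79%, where 1.12% of all genes fell. The counts are too small to set the members apart from other genes.

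**Figure D1:**
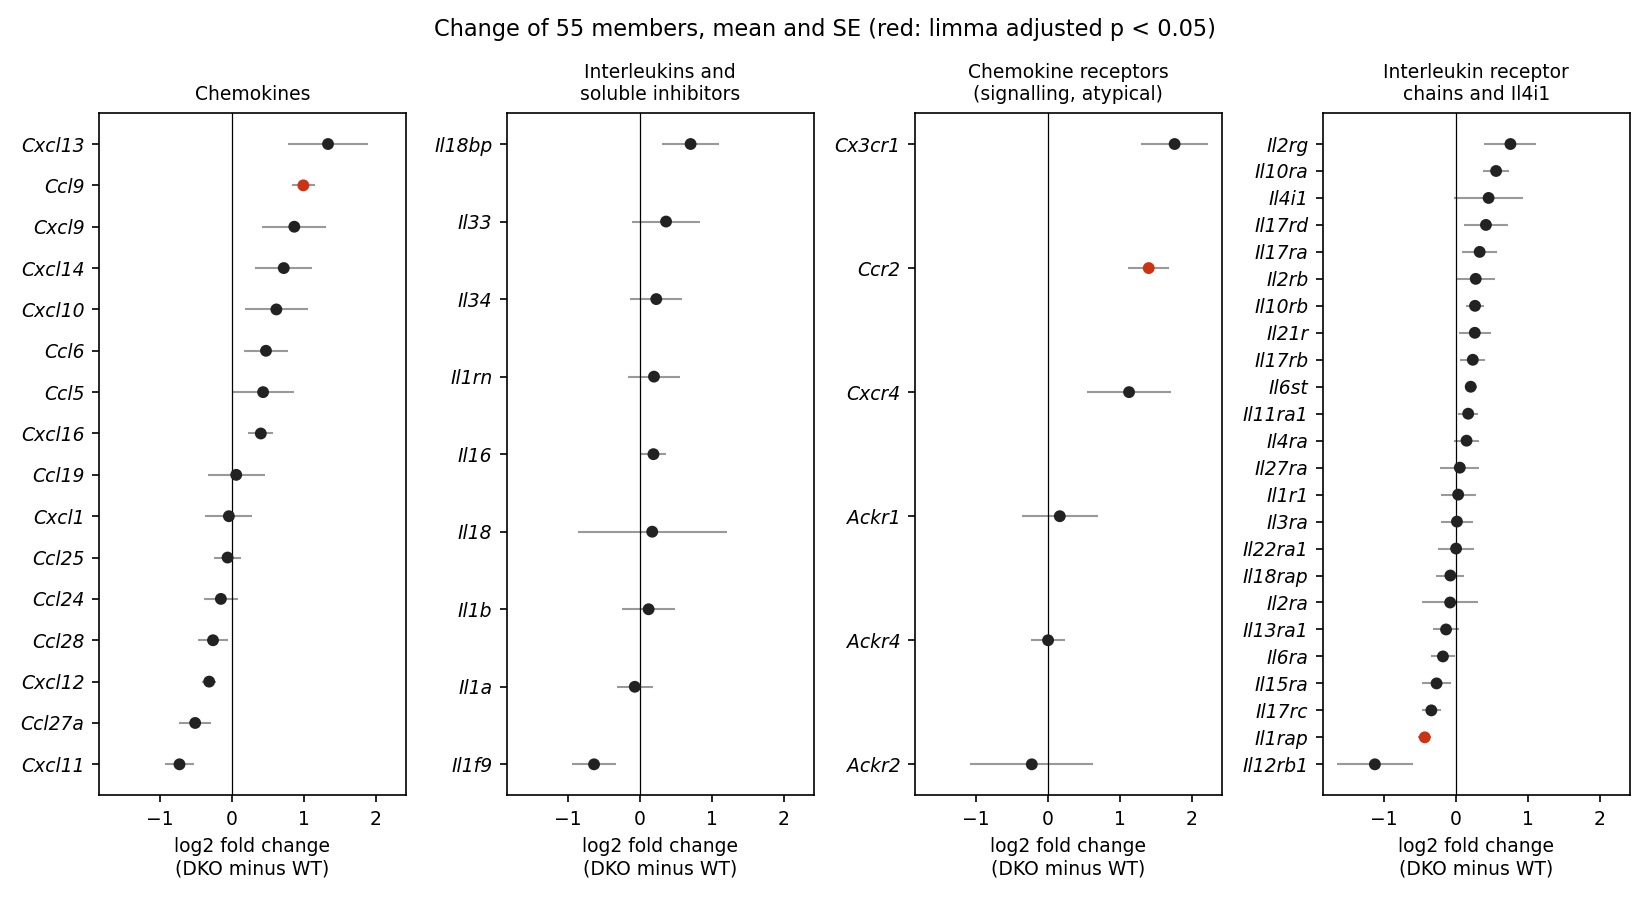
Log2 difference (DKO minus WT, x axis) of 55 of the 56 members with its standard error, in 4 panels by role and ordered by size. Red points, the members with a limma adjusted p below 0.05, are Ccl9 (0.99), Ccr2 (1.40) and Il1rap (-0.43).

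The sequences before the start sites of Ccl9 and Il1rap are shown because these were the members with the smallest p in each direction. They are from RefSeq on GRCm38.p6, an older build than the GRCm39 of the submitters' processing notes, and run 5′ to 3′ on the strand of the gene. Of the 56 members 44 had an entry in the promoter table. The Ccl9 stretch is chr11:83578637-83578886, minus strand, the 250 bases before the start. The Il1rap stretch is chr16:26581455-26581508, plus strand, the 54 bases before the first annotated base of the gene. The window of Ccr2 lies within an annotated transcript of that gene and is not printed. Capitals mark matches to the motifs searched.
Ccl9: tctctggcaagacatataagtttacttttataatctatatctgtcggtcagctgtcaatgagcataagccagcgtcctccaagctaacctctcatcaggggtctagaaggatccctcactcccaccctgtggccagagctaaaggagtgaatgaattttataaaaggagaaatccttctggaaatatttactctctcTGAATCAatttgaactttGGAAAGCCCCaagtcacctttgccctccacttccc
Il1rap: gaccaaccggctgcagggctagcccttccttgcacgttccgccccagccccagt
Searched on both strands were the PU.1 box (GAGGAA), the AP-1 site (TGANTCA), the C/EBP site (TTGCNNAA) and the NF-kB consensus site. In the 250 bases before Ccl9 an AP-1 match began 53 bases before the start and an NF-kB match 35 bases before it, with no overlap between them. The same windows of Ccr2 and Il1rap held none of the 4 motifs. Over all 32851 windows of this length, 6.75% held the AP-1 site, 7.25% the NF-kB site, 9.56% the C/EBP site and 23.3% the PU.1 box. Of the 55 windows of members, 9 held the AP-1 site (16.4%), 8 the NF-kB site (14.5%), 8 the C/EBP site (14.5%) and 11 the PU.1 box (20%). These shares describe letters in a window and were not tested. The windows also differed in base composition, with 43.6% G and C before Ccl9, 37.2% before Ccr2 and 74.4% before Il1rap.

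Among the CC chemokines, Ccl9 was the one that passed the test. Its level in WT was 4.12, 4.78, 4.51, 4.003, 4.95 and 4.70 log2 CPM in libraries 1 to 6, and in DKO it was 5.39, 5.83, 5.33, 5.52, 5.29 and 5.67. Every DKO library lay above every WT library, with the lowest DKO value (5.29) in DKO 5 and the highest WT value (4.95) in WT 5. The log2 difference was 0.99 (SE 0.16, adjusted p = 0.00861 by limma, exact permutation p = 0.00216, the smallest that 6 against 6 libraries can give). The groups did not overlap for 2 members in the higher direction and 1 in the lower, the same 3 members that were called, against 0.79% and 1.38% of all genes. Ccl9 kept its call with any 1 library left out (adjusted p up to 0.0287).

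The other 7 CC chemokines did not pass. Ccl6, a close relative of Ccl9 that also attracts myeloid cells, had a log2 difference of 0.47 (SE 0.31, adjusted p = 0.484), and its DKO values spanned 1.91 (DKO 1) to 4.08 (DKO 5) around a WT range of 2.23 to 3.18. Ccl5, the T cell and monocyte attractant RANTES, was -0.76 to 1.16 log2 CPM in WT and -0.40 to 1.98 in DKO (log2 difference 0.43, adjusted p = 0.667). Ccl27a, an epithelial chemokine, had a log2 difference of -0.51 (SE 0.22, adjusted p = 0.260), lowest in DKO 1 at 1.49 log2 CPM against 2.52 to 3.12 in WT. Ccl24, an eosinophil attractant made by macrophages, differed by -0.15 on the log2 scale (SE 0.24). The log2 differences of Ccl19, Ccl25 and Ccl28 were 0.06, -0.06 and -0.26. Ccl27a and Ccl19 have near-identical gene copies, so their levels may include shared reads. The 8 CC chemokines were split evenly in direction, 4 higher and 4 lower.

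None of the 8 CXC chemokines passed the test over all genes, and they moved in different directions. Those closest to it were lower in DKO. Cxcl11, an interferon-induced ligand of CXCR3, was 1.55 to 2.60 log2 CPM in WT (median 2.08) and 0.80 to 1.58 in DKO (median 1.45). Only the value of WT 1 (1.55) lay within the DKO range, and the log2 difference was -0.73 (SE 0.21, adjusted p = 0.0901 by limma, exact permutation p = 0.00433). Without WT 1 it passed (adjusted p = 0.0445), and over all alternatives the adjusted p lay between 0.0445 and 0.174. Cxcl12, the ligand of CXCR4 that holds leukocytes and progenitors in place, was 8.19 to 8.55 log2 CPM in WT (median 8.29) and 7.80 to 8.22 in DKO (median 8.03). DKO 2 overlapped WT, and the log2 difference was -0.32 (SE 0.09, adjusted p = 0.0991 by limma, exact permutation p = 0.00649).

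Several CXC chemokines were high in single DKO libraries. Cxcl9, another interferon-induced CXCR3 ligand, was 6.05 to 11.2 CPM in WT, and in DKO it was 8.88, 26.1, 8.39, 69.5, 14.8 and 8.21 CPM in libraries 1 to 6. DKO 4, DKO 2 and DKO 5 exceeded all WT libraries while the others lay within the WT range. The log2 difference was 0.87 (SE 0.44, limma adjusted p = 0.349) and 0.44 without DKO 4. Cxcl10, the third ligand of that receptor, was highest in DKO 2 (6.53 CPM) and DKO 4 (6.02 CPM) against 1.04 to 3.18 CPM in WT, and Ccl5 was highest in DKO 4 (3.94 CPM).

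Cxcl13, which attracts B cells, was 0.468 to 1.76 CPM in WT and reached 12.9 CPM in DKO 1 and 4.89 in DKO 3, against 1.23 to 1.94 CPM in the other DKO libraries. Its log2 difference was 1.34 (SE 0.56, limma adjusted p = 0.247) and 0.87 without DKO 1. The summed level of 4 measured B and plasma cell markers was also highest in DKO 1, at 134 CPM against 8.35 to 12.7 CPM in WT. Most of the DKO 1 sum was Ighm, the heavy chain of IgM, which reached 7.01 log2 CPM in DKO. Ighm rose 4.66-fold over the groups (limma adjusted p = 0.0453). Cd79a, Cd79b and Igkc had log2 differences of 0.24, 0.56 and 0.26 and did not pass. DKO 4, with the next highest B cell marker sum (42.0 CPM), had a Cxcl13 level within the WT range (1.26 CPM). DKO 3, with a sum of 36.3 CPM, had 4.89 CPM of Cxcl13. The summed level of 7 dendritic cell and antigen presentation genes was highest in DKO 4, at 394 CPM against 81.6 to 110 CPM in WT and 109 to 202 CPM in the other DKO libraries. Cd74 and H2-Ab1 had the highest levels of this list, up to 8.11 and 6.56 log2 CPM in DKO. Of the 7 genes 5 were higher in DKO and 2 lower, Siglech and Clec9a (log2 differences -0.75 and -0.19). Which cells carried these sums, and their part in the chemokine values, was not tested.

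**Figure D2:**
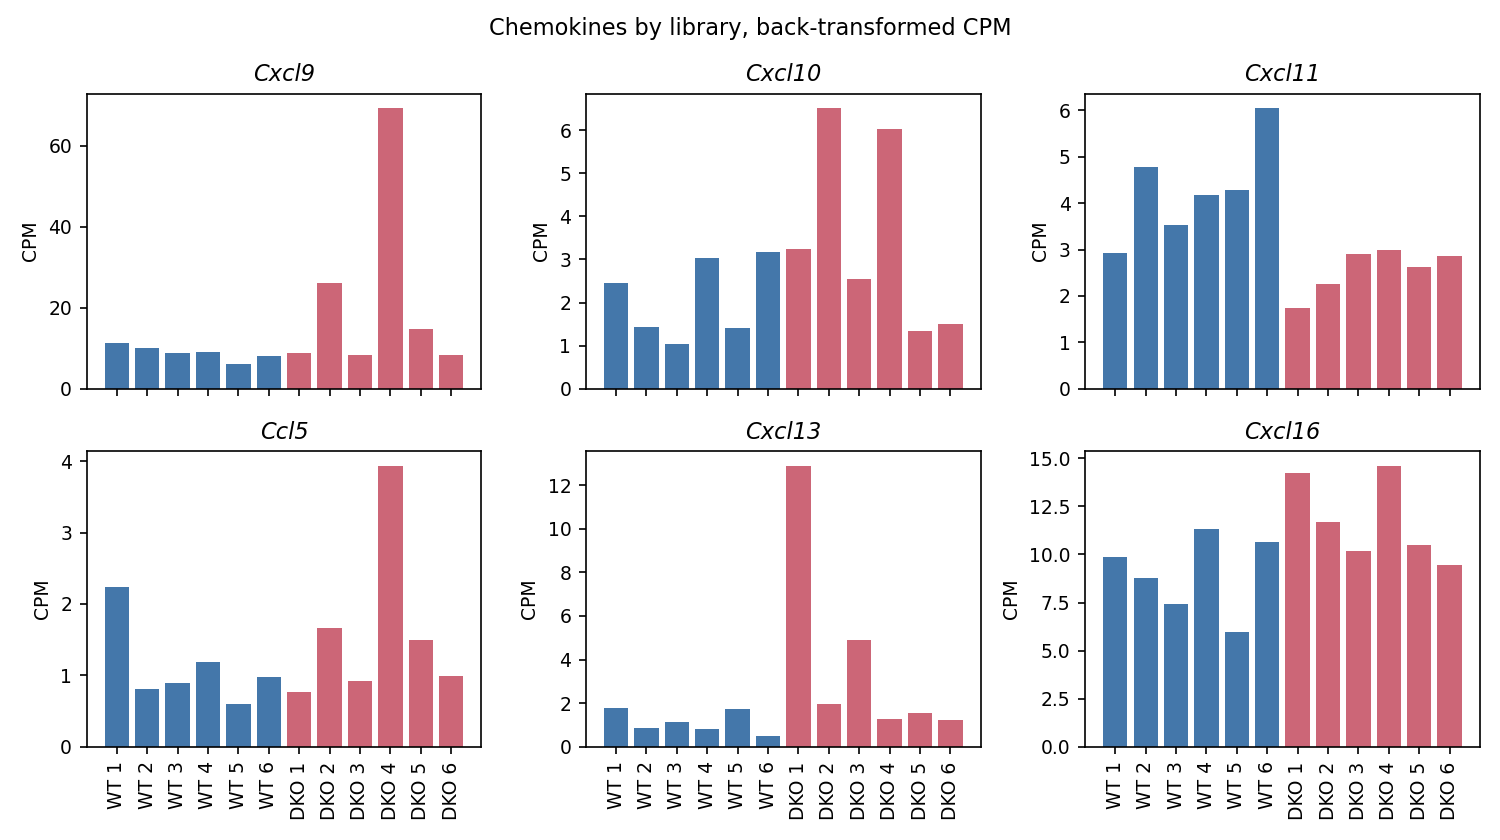
Back-transformed CPM (y axis, starting at 0) of 6 chemokines in each of the 6 WT (blue) and 6 DKO (red) libraries. Cxcl9 and Ccl5 peak in DKO 4 (69.5 and 3.94 CPM) and Cxcl13 in DKO 1 (12.9 CPM), while Cxcl11 is lower in most DKO libraries than in WT.

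Cxcl16, a membrane-bound chemokine and scavenger receptor, had a log2 difference of 0.40 (SE 0.17, adjusted p = 0.262), and all 6 DKO libraries lay above the WT mean. Cxcl14 had a log2 difference of 0.72 (SE 0.40, adjusted p = 0.392). Cxcl1, a neutrophil attractant, differed by -0.04 (SE 0.33, adjusted p = 0.969), with 0.56 to 2.09 log2 CPM in WT and 0.78 to 2.14 in DKO. That standard error leaves room for a change in either direction.

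The interleukins showed no called change. Il1b, the IL-1 cytokine released by activated macrophages, was -0.47 to 1.30 log2 CPM in WT and -0.42 to 1.41 in DKO (log2 difference 0.12, SE 0.37, adjusted p = 0.909). Il1a, its membrane-associated relative, differed by -0.07 (SE 0.25). Il1f9, the gene of IL-36 gamma, had the lowest p of the 7 and a log2 difference of -0.64 (SE 0.31, adjusted p = 0.318). Il33, an alarmin of stromal and endothelial nuclei, was 0.86 to 2.49 log2 CPM in DKO, with DKO 1 high, and -0.09 to 3.03 in WT, with WT 3 high (log2 difference 0.36, SE 0.48). Il34, the second ligand of the receptor CSF1R, had a log2 difference of 0.23 (SE 0.36), and Il16, a ligand of CD4, 0.19 (SE 0.17).

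Il18, the inflammasome-processed cytokine, varied more between libraries than between groups. It stood at -3.23 log2 CPM in WT 1 and at the lowest value of the table in DKO 3 and DKO 5, yet reached 1.5 in WT 6 and 1.98 in DKO 4. The log2 difference was 0.17 with a standard error of 1.04. Il18bp, the soluble protein that captures IL-18, was 0.30 to 3.05 log2 CPM in WT and 1.79 to 3.08 in DKO (log2 difference 0.71, SE 0.40, adjusted p = 0.406). Il1rn, the receptor antagonist of IL-1, differed by 0.20 (SE 0.37, adjusted p = 0.846), and Il4i1 by 0.46 (SE 0.48).

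Among the signalling chemokine receptors described here, Ccr2, Cx3cr1 and Cxcr4, all 3 had positive log2 differences and 1, Ccr2, passed the test. Its level in WT was -0.65, -0.12, 0.22, 0.19, 0.78 and 0.46 log2 CPM in libraries 1 to 6, and in DKO it was 1.54, 1.80, 1.67, 2.15, 1.24 and 0.91. The groups did not overlap, and the gap lay between WT 5 (0.78) and DKO 6 (0.91). The log2 difference was 1.40 (SE 0.28, adjusted p = 0.0244 by limma, exact permutation p = 0.00216). The call was lost without WT 2, WT 3, DKO 3 or DKO 4, where the adjusted p rose to at most 0.0604, and with quantile normalization (0.0518), while the log2 difference stayed between 1.24 and 1.53 with any 1 library left out.

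Cx3cr1, the fractalkine receptor of patrolling monocytes and tissue macrophages, had a log2 difference of 1.76 (SE 0.46) that did not pass (adjusted p = 0.0705 by limma, exact permutation p = 0.00433). WT values were -3.26, -1.32, -1.17, -0.34, -1.22 and -1.26 log2 CPM, and DKO values 0.20, 0.79, -0.45, 1.02, 0.09 and 0.36. WT 1 stood at the lowest value of the table, and DKO 3 was the one DKO library below a WT library, WT 4. On the log2(CPM + 1) scale the difference was 0.69 and passed (adjusted p = 0.0499), and the adjusted p lay between 0.0499 and 0.144 over all alternatives.

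Cxcr4, the receptor of Cxcl12, had a log2 difference of 1.13 (SE 0.59, adjusted p = 0.360) and was lowest in DKO 6 (-1.74 log2 CPM) against 0.51 to 1.66 in the other DKO libraries and -2.16 to 0.87 in WT. The atypical receptors showed no called change, with log2 differences of 0.17 for Ackr1 (SE 0.53), -0.22 for Ackr2 (SE 0.86) and 0.003 for Ackr4 (SE 0.24). Ackr2 stood at the lowest value in several libraries of both groups.

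**Figure D3:**
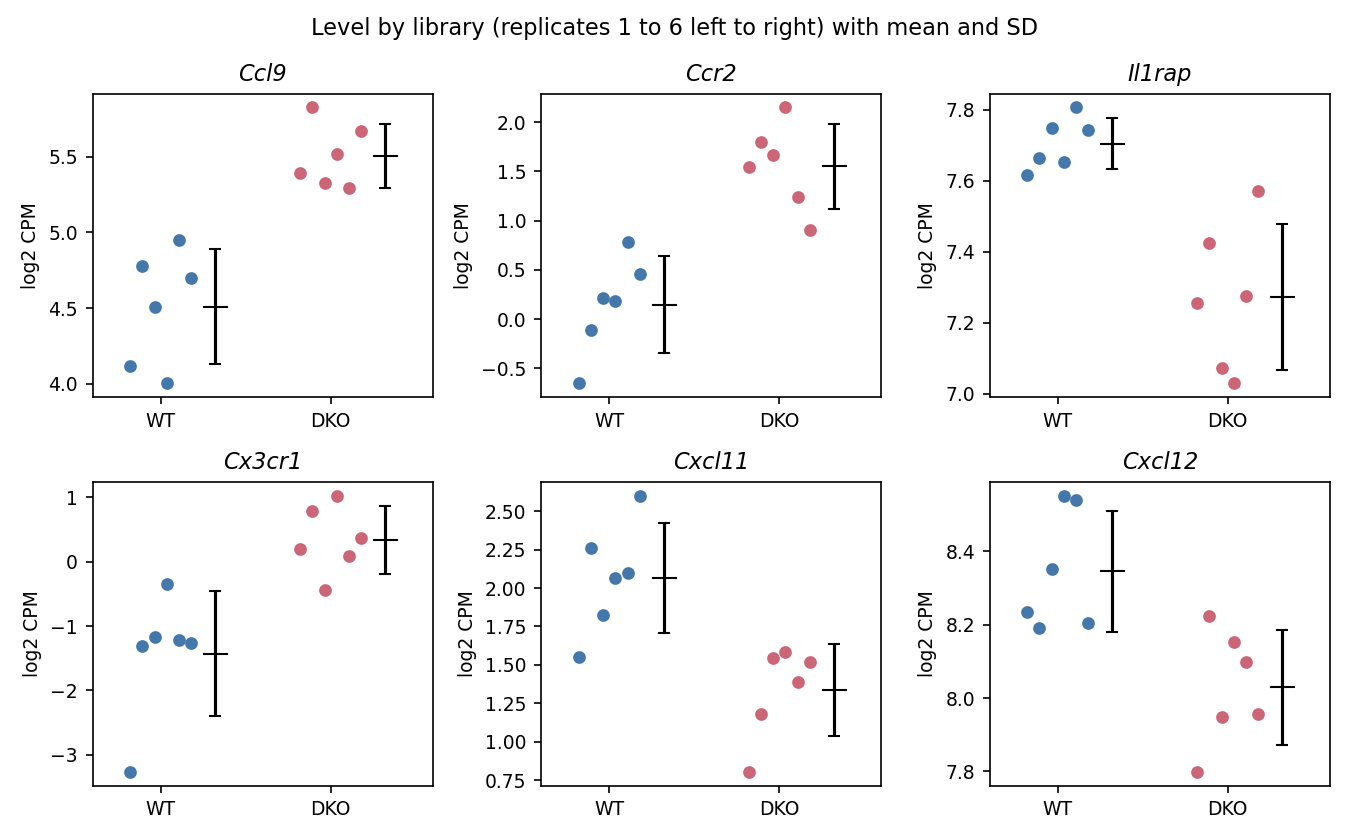
Log2 CPM (y axis) of 6 members in the 6 WT (blue) and 6 DKO (red) libraries, with the mean and SD beside each group. The groups are separate for Ccl9, Ccr2 and Il1rap, and overlap by a single DKO or WT library or a few for Cx3cr1, Cxcl11 and Cxcl12, which did not pass the test.

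Macrophage and monocyte markers moved in the direction of Ccl9, Ccr2 and Cx3cr1. All 19 measured markers of 20 were higher in DKO with a median log2 difference of 0.56. By limma 2 rose, Gpnmb (24.8-fold, adjusted p = 0.000851) and Lyz2 (1.93-fold, adjusted p = 0.0357), where 0.619% of all genes rose. At an unadjusted p below 0.05, 14 were higher and 0 lower, where 7.95% and 8.47% of all genes were. The summed level of the 19 markers was 421 to 780 CPM in WT and 585 to 939 CPM in DKO. Gpnmb alone had a library at the lowest value of the table. The sum mostly follows its highest genes, such as Clec4f, Cd5l and Mpeg1 (WT means 6.64, 6.35 and 6.15 log2 CPM). Ly6c2 and Itgam, at WT means of 1.20 and 0.38 log2 CPM, add little to it. Library by library the orders matched in part. DKO 2 had the highest marker sum (939 CPM) and the highest Ccl9 (56.7 CPM), and the DKO libraries with the lowest sums had the lowest Ccr2 (DKO 6, 1.88 CPM) and the lowest Cx3cr1 (DKO 3, 0.734 CPM) of their group. In contrast, WT 1 had the highest marker sum of its group (780 CPM) and its lowest Ccr2 (0.636 CPM) and Cx3cr1. DKO 3 and DKO 6 had marker sums of 585 and 622 CPM, below WT 1, and Ccl9 levels of 40.1 and 51.0 CPM, above the 16.0 to 30.9 CPM of WT. The part of macrophage or monocyte number in these results was not tested.

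**Figure D4:**
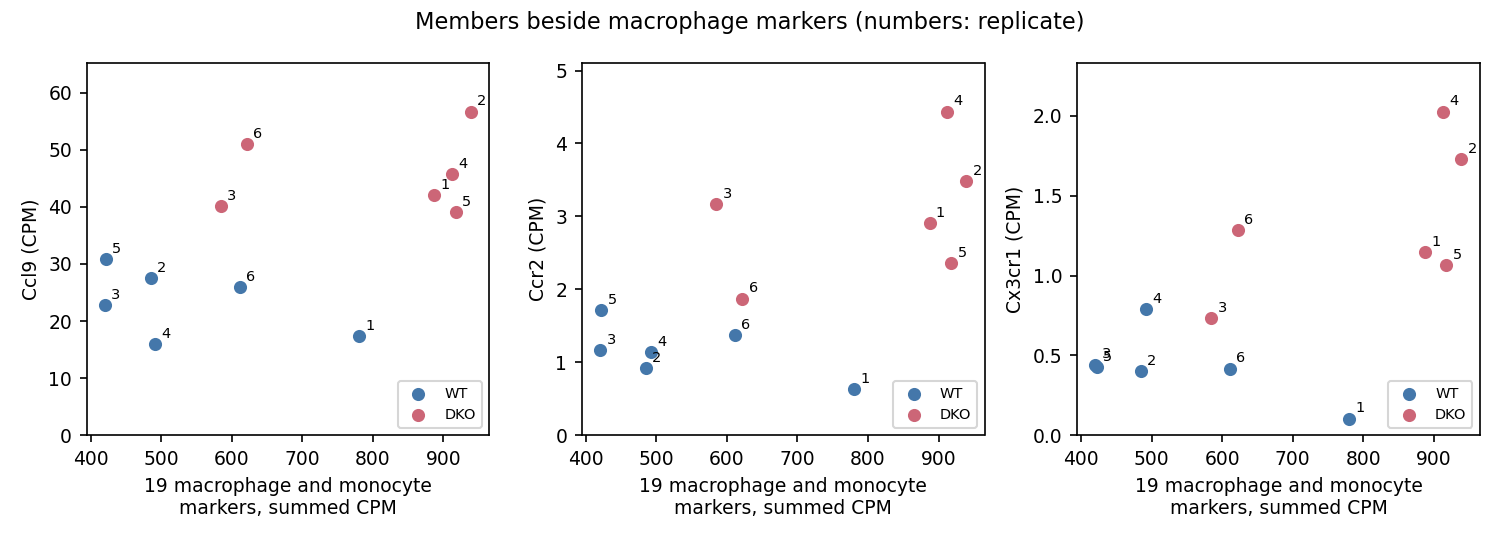
CPM of Ccl9, Ccr2 and Cx3cr1 (y axes) against the summed CPM of 19 macrophage and monocyte markers (x axis), one point per library, numbered by replicate, WT in blue and DKO in red. WT 1, with a marker sum of 780 CPM, has the lowest Ccr2 and Cx3cr1, and all DKO points of Ccl9 and Ccr2 lie above the WT points.

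Among the 23 interleukin receptor chains, 1 fell (4.35%, where 1.12% of all genes fell) and 0 rose (where 0.619% of all genes rose) by limma. At an unadjusted p below 0.05, 2 were higher (Il10ra and Il6st) and 2 lower (Il1rap and Il17rc), 8.70% each way, near the 7.95% and 8.47% of all genes. Il1rap was 7.62, 7.66, 7.75, 7.65, 7.81 and 7.74 log2 CPM in WT libraries 1 to 6, a spread of 0.07 (SD). In DKO it was 7.26, 7.43, 7.07, 7.03, 7.28 and 7.57, a spread of 0.21. The groups did not overlap, and DKO 6 came closest to WT. The log2 difference was -0.43 (SE 0.09, adjusted p = 0.0297 by limma, exact permutation p = 0.00216). This call was the least firm of the 3. It was lost without any 1 of WT 2 to WT 6, DKO 1, DKO 3, DKO 4 or DKO 5 (adjusted p up to 0.0766), without the mean trend (0.0615) and with quantile normalization (0.0808). The log2 difference was -0.49 to -0.38 with any 1 library left out, -0.43 without the mean trend and -0.33 with quantile normalization. Beside it, 5 of 8 hepatocyte markers were lower in DKO with a median log2 difference of -0.16. By limma 1 fell, Asgr1, where 1.12% of all genes fell. The part of these markers in the value of Il1rap was not tested.

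Other receptor chains of the IL-1 family did not pass. Il1r1, the ligand-binding partner of Il1rap for IL-1, differed by 0.03 (SE 0.24, adjusted p = 0.969), with 5.45 to 6.71 log2 CPM in WT and 5.59 to 6.83 in DKO. Il18rap, the accessory chain of the IL-18 receptor, differed by -0.08 (SE 0.19).

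For the IL-6 receptor, Il6st, which encodes the signal-transducing chain gp130, had a log2 difference of 0.21 (SE 0.08, adjusted p = 0.225), with 7.41 to 7.69 log2 CPM in WT and 7.40 to 7.84 in DKO. All DKO libraries except DKO 2 lay above the WT mean. Il6ra, the ligand-binding chain, differed by -0.18 (SE 0.16, adjusted p = 0.638).

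The chains of the IL-10 receptor were both higher without passing. Il10ra, the leukocyte-restricted ligand-binding chain, was 1.59 to 2.16 log2 CPM in WT and 1.97 to 2.84 in DKO (log2 difference 0.56, SE 0.18, adjusted p = 0.121 by limma, exact permutation p = 0.00649). Il10rb, the widely expressed chain that also serves the IL-22 receptor, had a log2 difference of 0.27 (SE 0.13, adjusted p = 0.320). For both genes all 6 DKO libraries lay above the WT mean. Il22ra1, the epithelial partner of Il10rb, differed by 0.003 (SE 0.25).

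The IL-17 receptor chains went different ways, none past the threshold. Il17rc was 3.85 to 4.53 log2 CPM in WT and 3.39 to 4.02 in DKO (log2 difference -0.34, SE 0.14, adjusted p = 0.225), and its partner Il17ra had a log2 difference of 0.33 (SE 0.24). Il17rb and Il17rd had log2 differences of 0.24 and 0.42.

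Il2rg, the common gamma chain of several lymphocyte cytokine receptors, had a log2 difference of 0.76 (SE 0.36, adjusted p = 0.317), high in DKO 1 (2.80 log2 CPM) and DKO 4 (2.66) and below the WT range in DKO 6 (0.46). Its partners Il2rb, Il2ra, Il21r, Il15ra and Il4ra differed by 0.28, -0.08, 0.26, -0.27 and 0.15 (SE 0.17 to 0.39). Il12rb1, a chain of the receptors for IL-12 and IL-23, had the most negative fold change of the members, -1.13 (SE 0.53, adjusted p = 0.306). It rested in part on DKO 1, at the lowest value of the table, and was -0.60 without that library. The log2 differences of Il3ra, Il11ra1, Il13ra1 and Il27ra lay between -0.14 and 0.17. Il11ra1 has near-identical copies that may share its reads.

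Ligands and receptors were set against each other by their medians and counts, and the difference between them was not tested. The median log2 difference was 0.17 over 23 ligands and 0.16 over 30 receptors, against 0.004 over all genes. Of the ligands 14 were higher and 9 lower in DKO, and of the receptors 21 were higher and 9 lower. Among all genes 50.8% were higher. At an unadjusted p below 0.05, 3 ligands and 4 receptors were higher, together 12.5% of the members against 7.95% of all genes, and 3 ligands and 2 receptors were lower, 8.93% against 8.47%. The median of the ligands was -0.055 without DKO 4 and -0.025 with quantile normalization, where that of the receptors was 0.061 and 0.097. DKO 4 had the highest value of its group for 18 of the 56 members, and DKO 6 the lowest for 15. DKO 1 had the lowest for 14, and WT 1 had the highest of its group for 15 and the lowest for 15. The 23 interleukin receptor chains had a median log2 difference of 0.05.

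Several members lie next to each other in the genome, and 9 neighbouring pairs were within 100 kb of each other in RefSeq on GRCm38.p6. For each pair the log2 ratio of its 2 genes was compared between the groups by an exact permutation test, adjusted over the 9 pairs. On chromosome 5 the ratio of Cxcl10 to Cxcl11 was 1.35 higher in DKO on the log2 scale (exact permutation p = 0.0303, adjusted p = 0.117), while that of Cxcl9 to Cxcl10 differed by 0.25 (adjusted exact p = 0.675). On chromosome 11, the ratio of Ccl9 to its neighbour Ccl6 differed by 0.52 (adjusted exact p = 0.477) and that of Ccl5 to Ccl9 by -0.56 (adjusted exact p = 0.565). On chromosome 4, Il11ra1 and Ccl27a overlap, so reads of the overlap cannot be told apart, and their ratio was 0.68 higher in DKO (exact permutation p = 0.0346, adjusted p = 0.117). It passed without DKO 6 (adjusted exact p = 0.0390). In the comparison of all 12 libraries, no pair passed after adjustment, and a difference in response between Ccl9 and Ccl6 was therefore not shown.

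Genes of the same pathways outside the naming rule were taken from lists. Of 23 measured cytokines and receptors of other families, 17 were higher in DKO and 0 passed by limma (7 higher and 1 lower at an unadjusted p below 0.05, where 7.95% and 8.47% of all genes were), with a median log2 difference of 0.19. Cd74, the invariant chain of MHC class II and a receptor of MIF, was closest, at 0.94 (SE 0.27, adjusted p = 0.0902). Of 31 measured genes of JAK, STAT, MyD88, NF-kB and G protein signalling, 22 were higher and 0 passed (8 higher and 0 lower at an unadjusted p below 0.05, against the same shares of all genes), with a median log2 difference of 0.12. Nfkb1, the p105 precursor of an NF-kB subunit, was closest, at 0.35 (SE 0.09, adjusted p = 0.0822).

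Markers of the other cell types are given by list. All 9 endothelial markers and 8 of 9 stellate cell and fibroblast markers were higher in DKO, and 0 of either list passed by limma. At an unadjusted p below 0.05, 5 of each list were higher and 0 lower, where 7.95% and 8.47% of all genes were. Summed levels were 265 to 310 CPM in WT and 284 to 383 in DKO for the endothelial list, and 399.8 to 464 and 438 to 546 CPM for the stellate list. Of 4 measured cholangiocyte markers 3 were higher and 1 rose, Spp1 (1.83-fold, limma adjusted p = 0.0213), where 0.619% of all genes rose. Krt7, Krt19 and Sox9 had log2 differences of -0.24, 0.53 and 0.01 and did not pass, and which cells carried the rise of Spp1 was not tested. The 3 measured T and NK cell markers summed to 2.74 to 4.46 CPM in WT and 2.06 to 4.51 in DKO, and Csf3r, the 1 measured neutrophil marker, was 1.73 to 5.02 CPM in WT and 2.95 to 5.99 in DKO. Of the 7 dendritic cell genes 5 were higher, and 0 passed by limma. At an unadjusted p below 0.05, 4 of them were higher and 1 lower, where 7.95% and 8.47% of all genes were. All 4 B and plasma cell markers were higher, and Ighm was the 1 that rose, against 0.619% of all genes.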

How the data were processed

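The labels describe 12 mouse liver libraries, 6 WT and 6 DKO, grouped by genotype. The authors deposited log2 CPM values. The table's name describes them as filtered and normalized, and all libraries share a lowest value of -3.26 log2 CPM. How low genes were filtered, what count was added and which normalization was used is not given. Kallisto 0.46.2, edgeR, limma and the build GRCm39 appear in the submitters' processing notes without a role. Depth is unknown and whole reads could not be recovered, so precision was judged from the spread between libraries. A row without a name was left out. The values of 1 member entered the counts and medians and are not reported here.

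DKO was compared with WT with limma 3.58.1 under R 4.3.3. Linear models with trended empirical Bayes variances were fitted, 2-sided, to all 12284 genes without a further filter or covariate, with Benjamini-Hochberg adjustment. The fit was tested on simulated data. Exact permutation tests (2-sided) of single values used all 924 divisions into 6 and 6. "Rose" and "fell" mean an adjusted p below 0.05. Members and lists were chosen with earlier results of these data known. Named were all called or non-overlapping members, the 3 largest changes per role class (mean level 0 log2 CPM or more), and a fixed set. The neighbouring pairs and their alternatives were chosen after seeing the data. The 9 marker lists were macrophage and monocyte, T and NK cell, B and plasma cell, neutrophil, dendritic cell, endothelial, stellate cell, cholangiocyte and hepatocyte. Alternatives were no mean trend, robust variance, a block for the replicate number, array weights, a filter at a mean of 1 log2 CPM, log2(CPM + 1), quantile normalization, subtracted medians, a rank-sum test and each library left out. Figures were drawn with matplotlib 3.10.9.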

Additional observations from a re-analysis of the deposited data

Results flagged for a closer look

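Each group of 6 values was examined for a highest or lowest library set apart from the rest by more than Dixon's 95% limit. Chance flags about 1 in 20 groups, 5.7 of the 114 groups examined, and 11 were found, spread over 7 libraries with at most 3 in any 1. The lowest library was set apart in WT for Cx3cr1 (WT 1, -3.26 log2 CPM, next -1.32), Il4i1 (WT 1, -1.88, next -0.43) and Il18rap (WT 6, 1.54, next 1.89). In DKO it was set apart for Cxcr4 (DKO 6, -1.74 log2 CPM, next 0.51), Il17rb (DKO 6, 2.13, next 2.83), Il12rb1 (DKO 1, -3.26, next -0.56) and Il6st (DKO 2, 7.40, next 7.68). The highest library was set apart for Il17rc (WT 5, 4.53 log2 CPM, next 4.04), Il6st (WT 3, 7.69, next 7.51), Il33 (DKO 1, 2.49, next 1.27) and Acss2 (WT 1, 7.45, next 6.50).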

How the results depend on the processing

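Of the 3 calls, that of Ccl9 was kept in every limma alternative, and those of Ccr2 and Il1rap were lost in some. The number of members higher in DKO was 2, and 1 with quantile normalization or with the filter at a mean of 1 log2 CPM, which left 38 members and removed Ccr2. On the log2(CPM + 1) scale it was 3, with Cx3cr1 added. With 1 library left out it was 1 to 2. The number lower was 1, and 0 without the mean trend or with quantile normalization, and 0 to 2 with 1 library left out. The exact rank-sum test gave 0 members in either direction and 0 of all genes (9 members and 1742 genes at an unadjusted p below 0.05). Its smallest p, 0.00216, was reached by the 97 and 169 genes without overlap, too few to pass the adjustment, so these zeros say nothing about the members. Members without overlap numbered 3, and 3 to 5 with 1 library left out. The median log2 fold change of the ligands was -0.025 with quantile normalization and -0.055 to 0.24 with 1 library left out, and that of the receptors stayed between 0.061 and 0.18 over all alternatives. Over all genes 214 were called, and 138 without the mean trend, 109 with quantile normalization, 356 with array weights, 397 with the replicate number as a block, and 92 to 373 with 1 library left out. The split of these calls was 76 higher and 138 lower, against 62 and 76 without the mean trend, 48 and 61 with quantile normalization and 72 and 173 with medians subtracted. Of the pathway genes outside the naming rule 0 were called, 0 to 1 with 1 library left out, and 1 with the replicate block, Cd74. Acly and Acss2 were called under every alternative fitted with limma. Among members not called, 15 had the opposite sign under at least 1 alternative.

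Whether the replicate numbers pair the libraries was not settled. Deviations of same-numbered libraries correlated at -0.08 to 0.29 across genes, over 0.1 for 2 of 6 pairs, and 4 of 6 WT libraries correlated best with the DKO library of their number. The replicate block changed no call of a member, while over all genes 397 were called with it and 214 without it. The unknown depth limits members near the lowest value of the table, of which 4 had a library at it.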

Other observations

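The spread between libraries of the same group is given beside that of all genes, without a comparison at like level. The median level per library was 1.28 to 2.13 log2 CPM over the members and 3.93 to 4.003 log2 CPM over all genes. Over the 56 members the median SD in WT was 0.39 on the log2 scale and in DKO it was 0.50, where all genes had medians of 0.26 and 0.28. The SD was larger in DKO than in WT for 33 of the 56 members, and for 56.7% of all genes.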
